A study of Mus musculus with 4 samples.

Results

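Hif1a and 9 genes that it is known to induce when oxygen is low were followed in mouse bone marrow cultures that had flown on a space shuttle and in parallel cultures kept on the ground. The genes were chosen by name, with earlier results of these data known: Hif1a, Vegfa, Bnip3, Egln1, Egln3, Ankrd37, Adm, Ndrg1, P4ha1 and Kdm3a. All 22 probe sets with 1 of these symbols in the platform annotation were taken, out of 45037 probe sets other than the maker's controls. A probe set is a group of oligonucleotides on the array that together give 1 intensity for a transcript. Of the 22, 21 reached the median of all probe sets on average (6.40 on the log2 scale) and are called measured, as were 22519 of the 45037. The exception was a Hif1a probe set, 1431981_at.

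The study asked how macrophages form from marrow cells in culture during space flight. In the space flight group (2 arrays), pooled marrow cells of 21 adult C57BL/6 mice (>8 weeks old) were cultured with M-CSF, which makes progenitors in marrow mature into macrophages, at 1.5 µg/ml and 37 °C in sealed glass barrels aboard the shuttle. In the ground control group (2 arrays), barrels loaded from the same pool of cells were given the same medium, temperature and timing on the ground. Both groups received more medium on culture day 6 and were lysed on culture day 15, which was spaceflight day 14. Each array held RNA of 2 pooled barrels, chosen for RNA quality among 4 such pools per group, so replicates were separate cultures of 1 marrow pool. P-values therefore covered spread between cultures and arrays and not between animals. The labels call the tissue bone marrow, and all 12 genes of a macrophage marker list were measured. Csf1r, the M-CSF receptor, had 14.87 and 14.91 in space flight, against 15.28 and 15.24 in ground control.

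HIF-1, the transcription factor that Hif1a helps to form, switches on genes when oxygen is scarce. With oxygen present, the prolyl hydroxylases encoded by Egln1 and Egln3 mark the Hif1a protein, the von Hippel-Lindau protein (Vhl) binds it, and it is destroyed; without oxygen it persists, pairs with Arnt and binds DNA at short motifs that contain ACGTG or GCGTG. Hif1a is therefore controlled largely through its protein, which an RNA array does not measure, while the RNA of its targets is the usual readout. Macrophages rely on this pathway in poorly oxygenated tissue and on activation.

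Those binding letters stand in the promoters of most of the 10 genes, and the stretches that carry them are printed for 6 genes, whose probe sets are described below. The sequences are RefSeq's for mouse assembly GRCm38.p6, run 5′ to 3′ on the strand of the gene, end before the listed transcription start and show every match to ACGTG or GCGTG, read on either strand, in capitals.
Hif1a, chr12:73907717-73907816, plus strand: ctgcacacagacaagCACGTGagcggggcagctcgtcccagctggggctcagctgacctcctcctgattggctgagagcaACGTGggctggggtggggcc
Egln1, chr8:124949303-124949395, minus strand: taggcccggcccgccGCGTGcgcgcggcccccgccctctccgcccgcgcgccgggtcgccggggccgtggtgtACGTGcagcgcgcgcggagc
Egln3, chr12:54204084-54204118, minus strand: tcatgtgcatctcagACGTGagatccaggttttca
Bnip3, chr7:138909522-138909638, minus strand: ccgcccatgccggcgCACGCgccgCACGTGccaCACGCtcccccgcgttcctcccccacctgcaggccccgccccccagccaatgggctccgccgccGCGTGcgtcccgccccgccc
Ankrd37, chr8:45999851-46000100, minus strand: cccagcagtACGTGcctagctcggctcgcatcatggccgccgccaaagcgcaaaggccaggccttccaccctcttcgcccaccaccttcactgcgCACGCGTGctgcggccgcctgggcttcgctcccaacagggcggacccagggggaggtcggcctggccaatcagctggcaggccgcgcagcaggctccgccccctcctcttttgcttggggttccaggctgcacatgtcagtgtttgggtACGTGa
Adm, chr7:110627552-110627622, plus strand: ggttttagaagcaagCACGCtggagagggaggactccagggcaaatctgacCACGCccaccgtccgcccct
RefSeq promoter windows, reaching from 250 bases before a listed start to 50 after it, were at hand for 9 of the 10 genes and not for Ndrg1. In the first listed window of each gene, 8 of the 9 held at least 1 match, or 88.9%, against 43.8% of the first windows of all 27025 genes in the table. For ACGTG alone the counts were 6 of 9, against 19.7% of all genes, and for GCGTG they were 6 of 9, against 32.5%. The run CACGTG, present in Hif1a and Bnip3, reads ACGTG on both strands and gives 2 matches. Bnip3 held 2 matches to ACGTG and 3 to GCGTG, and Ankrd37 held 2 of each. The first Vegfa window held 0 matches, which says only that the letters are not in this window, and a second one, at another listed start, held 1 match to each motif. Windows 2 and 3 of Kdm3a, at other listed starts, held 0 matches. Over all 12 windows of these genes, 9 held a match, or 75%, against 43.8% of all windows. The 9 genes, Hif1a and 8 of its targets, were chosen for their place in this pathway and base composition was not matched, so these shares describe the promoters and are no test.

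RNA on all arrays was degraded, with an RNA integrity number of 3 in the labels. RNA pools that had flown weighed 21.2 and 25 ng, against 12.5 and 24.1 ng for pools kept on the ground, under letters that could not be tied to the arrays. The same labels say that 50 ng was primed for amplification, more than any of these amounts, so how much RNA entered each reaction is uncertain. The ratio of 3′ to 5′ signal was read from the maker's control probe sets. The RNA was also amplified in 2 rounds, and the part of degradation in these ratios was not tested. For Gapdh this ratio reached 15.2 on space flight array 2 and 4.09 on space flight array 1, against 4.13 and 3.33 in ground control, so space flight array 2 stood apart in this measure; for Actb the ratio there was 4.91, against 2.30 to 3.08 on the other 3 arrays, and for the transferrin receptor it was 3.47, the lowest of the 4. Values below are quantile normalized log2 intensities, and a difference is space flight minus ground control with its standard error from limma.

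None of the 21 measured probe sets passed limma's test after Benjamini-Hochberg adjustment over all measured probe sets, with adjusted p from 0.272 to 0.996. Of all 22519 measured probe sets 11 passed, or 0.0488%. At an unadjusted p under 0.05 there were 2 member probe sets, or 9.52%, against 12.0% of all measured probe sets; both were higher in space flight, as 5.43% of all were, none was lower, as 6.58% of all were, and they belonged to Vegfa and Ndrg1. The median difference was 0.01 over the 21 and −0.02 over all measured probe sets. Signs were nearly balanced, with 11 positive and 10 negative, and the median size of a difference was 0.25 for the members and 0.35 for all measured probe sets. Both space flight values lay outside the ground control pair for 7 of the 21 probe sets, or 33.3%, against 43.2% of all measured probe sets; 6 were above and 1 below, where 20.7% and 22.5% of all were. In bulk RNA, fewer cells of a type and less RNA per cell cannot be told apart. For 14 of the 21 the 95% interval lay between −1 and 1, that is, within a doubling or halving, and for the other 7 a larger change is inside the interval.

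**Figure D1:**
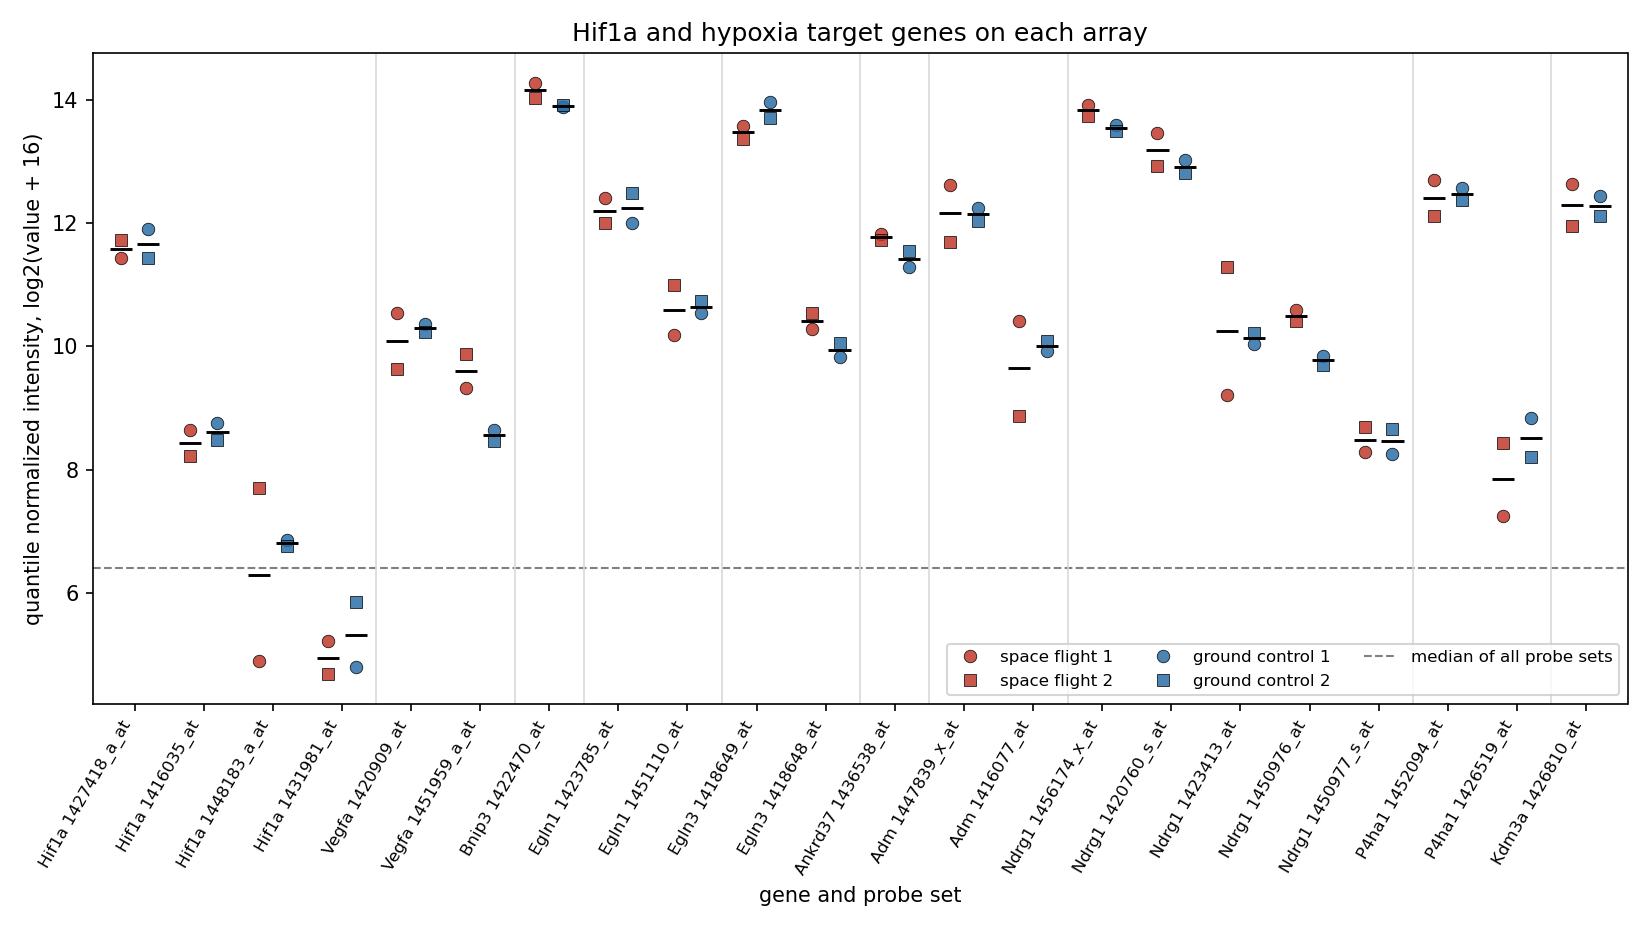
Quantile normalized log2 intensity of each of the 22 probe sets, with space flight (red) left of ground control (blue), array 1 as circles, array 2 as squares, group means as short lines and the median of all probe sets (6.40) dashed. The space flight pair is often wider than the ground control pair, and 1431981_at of Hif1a lies below the dashed line in both groups.

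Hif1a itself, the oxygen-regulated subunit, did not differ detectably on any of its measured probe sets. Its brightest, 1427418_a_at, had 11.43 and 11.73 in space flight, against 11.90 and 11.43 in ground control, giving replicate 1 first here and below. The groups overlapped, and the difference was −0.09 ± 0.25 (SE, n = 2 arrays per group; limma adjusted p = 0.923) with a 95% interval of −0.66 to 0.48. Probe set 1416035_at had 8.65 and 8.22 in space flight, against 8.76 and 8.48 in ground control, a difference of −0.18 ± 0.36 (SE). Probe set 1448183_a_at had 4.89 and 7.70 in space flight, against 6.85 and 6.77 in ground control. Here the space flight arrays lay on either side of both ground control arrays, and the interval ran from −2.39 to 1.37. It was measured only through ground control, since its space flight mean lay under the limit. The dim 1431981_at had 5.22 and 4.69 in space flight, against 4.80 and 5.86 in ground control, and was not tested.

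Egln1 and Egln3 encode the oxygen sensors that mark Hif1a, and both are also induced by HIF. Egln1 had 12.40 and 12.00 on its brightest probe set, 1423785_at, in space flight, against 12.01 and 12.49 in ground control. On 1451110_at it had 10.19 and 10.99 in space flight, against 10.55 and 10.73 in ground control. The groups overlapped on both, with differences of −0.04 ± 0.25 and −0.05 ± 0.32 (SE).

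The probe sets of Egln3 pointed in opposite directions. The brightest, 1418649_at, had 13.58 and 13.37 in space flight, against 13.97 and 13.70 in ground control, with both space flight arrays lower. On 1418648_at it had 10.29 and 10.55 in space flight, against 9.82 and 10.05 in ground control, with both space flight arrays higher. The differences were −0.36 ± 0.17 and 0.48 ± 0.28 (SE; limma adjusted p = 0.448 and 0.542). Taken per array, 1418648_at minus 1418649_at was −3.29 and −2.82 in space flight, against −4.15 and −3.65 in ground control, a shift of 0.84 between the probe sets (exact permutation test, two-sided p = 0.333). That p is the smallest 2 arrays against 2 can give, and 11 such pairs of probe sets were compared (adjusted p = 1).

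Vegfa, the secreted growth factor of blood vessels, held both the largest difference of the 21 and a second probe set whose groups overlapped. Probe set 1451959_a_at had 9.33 and 9.88 in space flight, against 8.65 and 8.46 in ground control, so both space flight arrays were higher. The difference was 1.05 ± 0.34 (SE), or 2.07-fold, with unadjusted p = 0.0131 and limma adjusted p = 0.272. The brighter 1420909_at had 10.54 and 9.64 in space flight, against 10.37 and 10.23 in ground control. There the groups overlapped, at −0.21 ± 0.35 (SE; limma adjusted p = 0.855). The shift between the probe sets, 1451959_a_at minus 1420909_at, was 1.26, from −1.21 and 0.24 in space flight and −1.71 and −1.77 in ground control (exact permutation test, two-sided p = 0.333; adjusted p = 1 over the 11 pairs). The ending _a_at is the maker's for probes shared by several transcripts of 1 gene, and the sources used here do not say which Vegfa transcripts either probe set reads. Without space flight replicate 1, 1451959_a_at stood at 1.33, and without space flight replicate 2 it stood at 0.77.

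Adm encodes adrenomedullin, a secreted peptide that widens blood vessels, and it showed a wide gap between the space flight arrays. Its brightest probe set, 1447839_x_at, had 12.62 and 11.70 in space flight, against 12.25 and 12.04 in ground control. On 1416077_at it had 10.42 and 8.87 in space flight, against 9.92 and 10.08 in ground control. On both, space flight array 1 was above and array 2 below the ground control arrays. The differences were 0.02 ± 0.30 and −0.36 ± 0.46 (SE). Without space flight replicate 1, 1416077_at stood at −1.13, and without space flight replicate 2 it stood at 0.42. The ending _x_at marks probes that may also bind other transcripts.

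**Figure D2:**
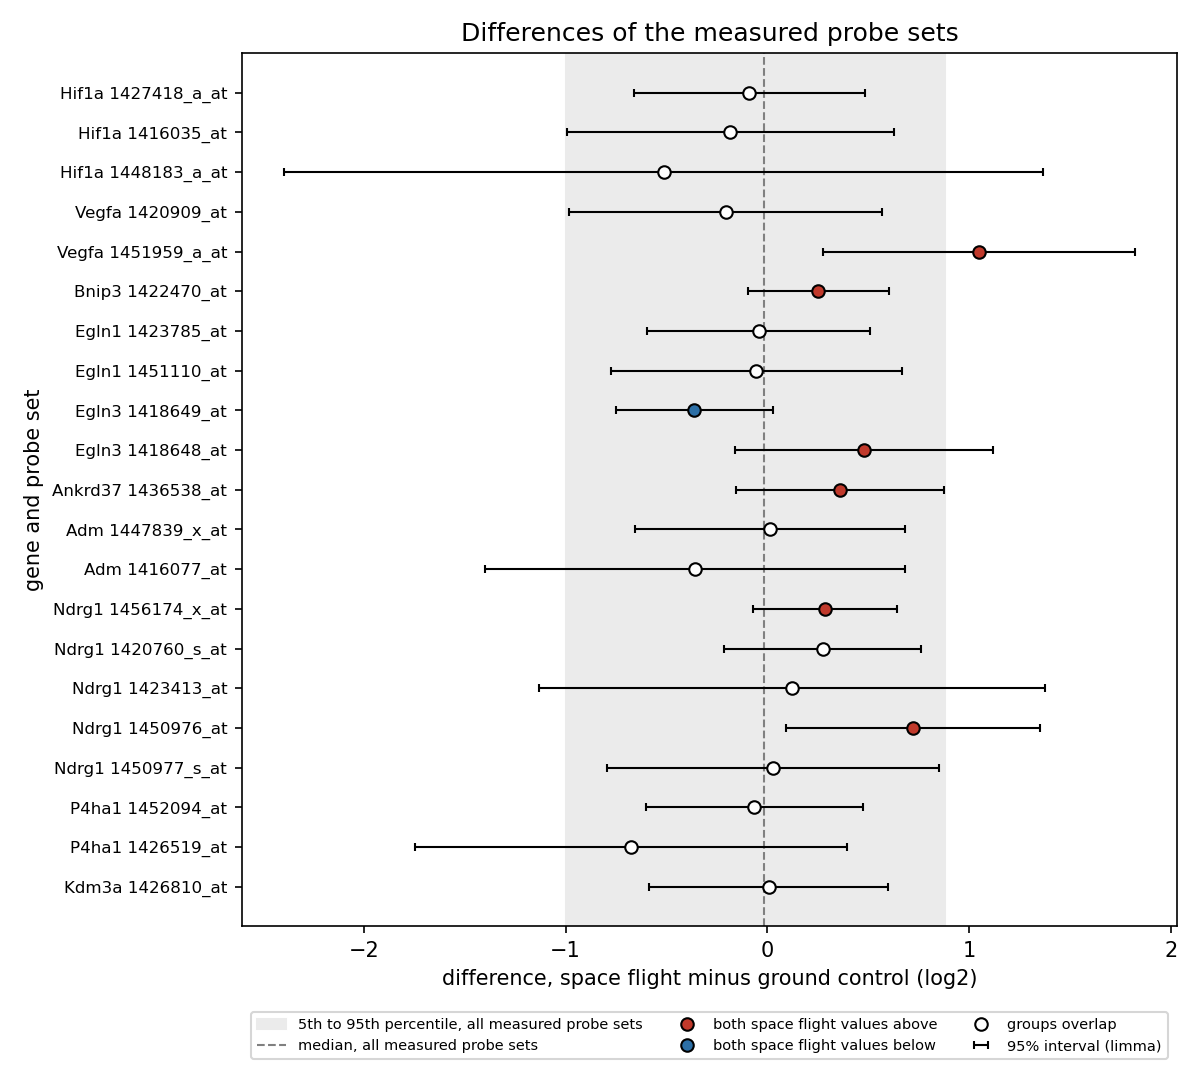
Difference in log2 intensity, space flight minus ground control, of the 21 measured probe sets, with the 95% interval from limma. Red points had both space flight values above the ground control pair, the blue point (Egln3 1418649_at) had both below, and white points overlapped; grey marks the 5th to 95th percentile of all measured probe sets, −1.00 to 0.88, which holds all of the points but Vegfa 1451959_a_at.

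Among targets that act inside the cell, Bnip3, Ankrd37 and Ndrg1 had higher space flight values on 1 or more probe sets, each short of the threshold. Bnip3, a mitochondrial outer membrane protein that recruits the autophagy machinery to mitochondria, had 14.28 and 14.03 in space flight, against 13.88 and 13.92 in ground control. Both space flight arrays were higher, by 0.25 ± 0.15 on average (SE; limma adjusted p = 0.558), or 1.19-fold. Ankrd37, an ankyrin repeat protein whose gene is a direct HIF target, had 11.82 and 11.73 in space flight, against 11.29 and 11.55 in ground control. The difference was 0.36 ± 0.23 (SE; limma adjusted p = 0.578), with an interval of −0.16 to 0.87.

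Ndrg1, a cytoplasmic protein long used as a marker of hypoxia, was read by 5 probe sets, all of them measured and all with a positive difference, from 0.03 to 0.72, although with arrays shifted to 1 median 1423413_at stood at −0.12 and 1450977_s_at at −0.18. Probe sets of 1 gene share its RNA and are not independent. The brightest, 1456174_x_at, had 13.92 and 13.75 in space flight, against 13.59 and 13.50 in ground control, and 1450976_at had 10.59 and 10.41, against 9.85 and 9.71. Both space flight arrays were higher on these 2 probe sets, by 0.29 ± 0.16 and 0.72 ± 0.28 (SE; limma adjusted p = 0.512 and 0.359). Probe set 1420760_s_at had 13.46 and 12.93 in space flight, against 13.02 and 12.81 in ground control, and 1450977_s_at had 8.29 and 8.69, against 8.26 and 8.66. The fifth, 1423413_at, had 9.21 and 11.30 in space flight, against 10.04 and 10.22 in ground control. Its space flight arrays enclosed the ground control pair, the opposite way round from Adm, with array 2 the higher. It stood at 1.16 without space flight replicate 1 and at −0.92 without space flight replicate 2. The ending _s_at marks probes that several transcripts share, possibly of more than 1 gene.

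P4ha1, the catalytic subunit of the enzyme that hydroxylates collagen, and Kdm3a, a histone demethylase, had no detectable difference. P4ha1 had 12.70 and 12.11 on its brightest probe set, 1452094_at, in space flight, against 12.57 and 12.38 in ground control (−0.06 ± 0.24, SE). On 1426519_at it had 7.25 and 8.44 in space flight, against 8.84 and 8.20 in ground control (−0.67 ± 0.48, SE). The groups overlapped on both. The dimmer probe set stood at −1.27 without space flight replicate 2 and at −0.08 without space flight replicate 1. Kdm3a had 12.63 and 11.95 in space flight, against 12.45 and 12.12 in ground control, a difference of 0.01 ± 0.26 (SE) with an interval of −0.59 to 0.60.

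The space flight arrays differed from each other on the member probe sets more than the ground control arrays did. The median gap between replicates was 0.53 in space flight and 0.20 in ground control over the 21 probe sets, and 0.45 and 0.29 over all measured probe sets. The gap was wider in space flight for 17 of the 21, or 81.0%, and for 64% of all measured probe sets. Space flight array 1 was the higher of its pair on 13 of the 21 probe sets and array 2 on 8. Kdm3a, Bnip3, Adm and the brightest probe sets of P4ha1, Vegfa and Egln1 were among those higher on array 1. Those higher on array 2, where the Gapdh ratio was 15.2, included the other probe sets of P4ha1, Vegfa and Egln1. They also included 1423413_at of Ndrg1 and, for Hif1a, the brightest probe set and 1448183_a_at. The part of RNA degradation in these gaps was not tested.

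**Figure D3:**
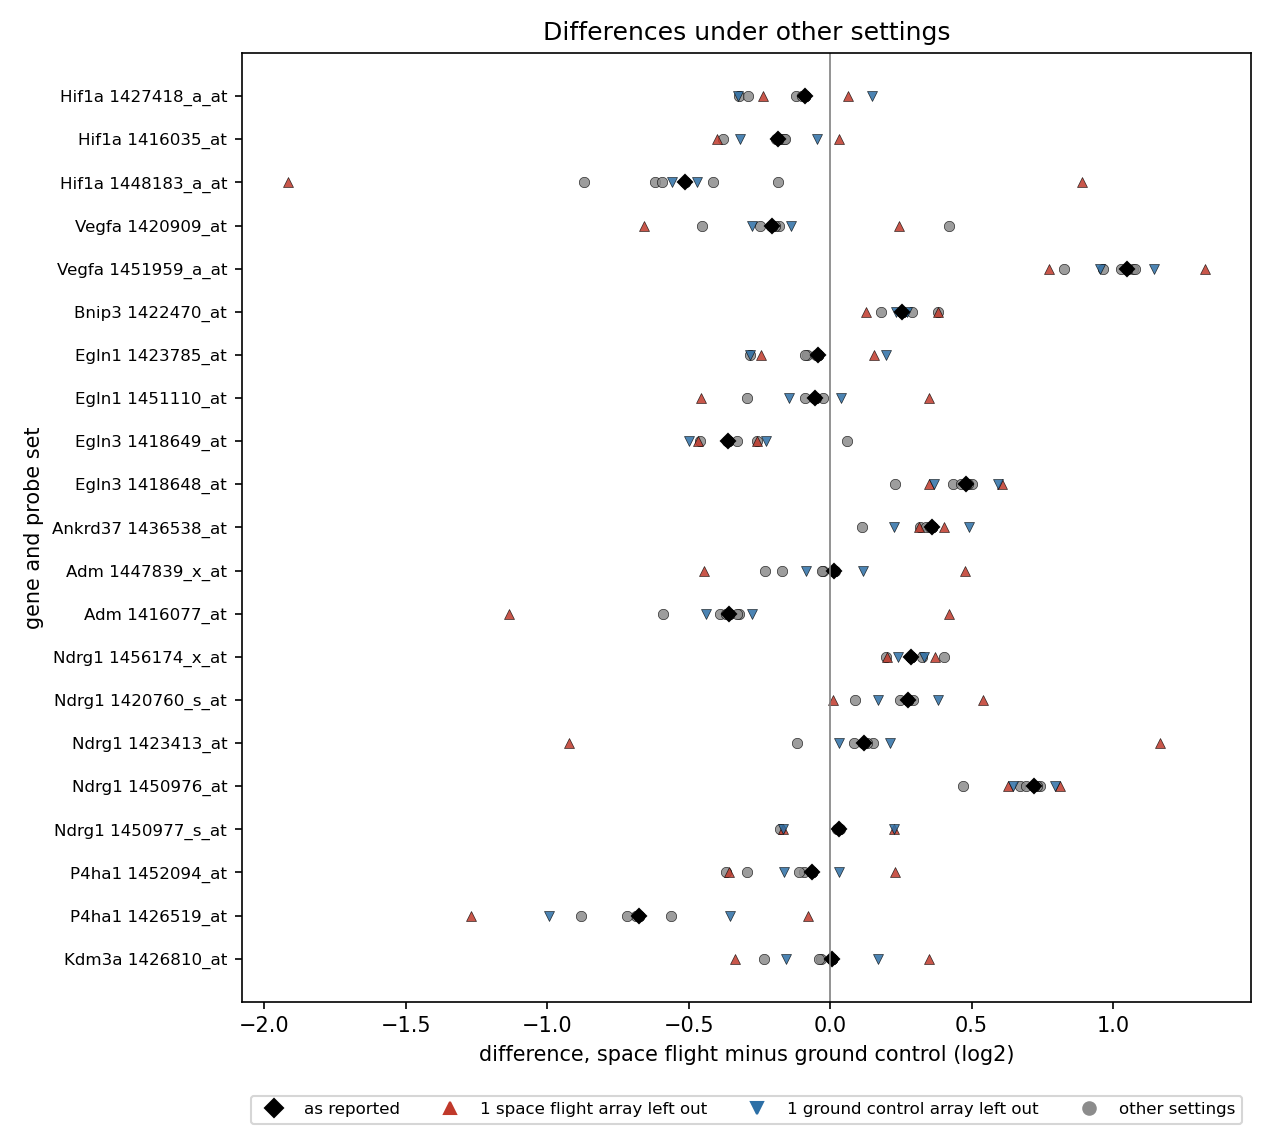
Difference in log2 intensity of each measured probe set as reported (black), with 1 space flight array left out (red), with 1 ground control array left out (blue) and under other settings (grey). Hif1a 1448183_a_at stands at 0.89 without space flight replicate 1 and at −1.92 without space flight replicate 2, whereas Bnip3, Ankrd37 and Ndrg1 1450976_at stay above 0 throughout.

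Other genes of the pathway were read from 3 lists, by the brightest probe set of each gene. These lists too were chosen with earlier results of these data known. None of their measured genes passed limma's test over all measured probe sets, which 0.0269% of the brightest probe sets of all genes did. Regulators and partners of HIF had a median difference of 0.39 over 13 measured genes of 15 listed, against 0.02 over all measured genes, with 10 positive and 3 negative. At an unadjusted p under 0.05, 3 were higher and 1 lower, where 6.22% and 6.69% of all measured genes were. The elongin genes, whose products join Vhl in the complex that destroys Hif1a, were 2 of the 3. The third, Hif3a, was measured only through its space flight mean of 7.47. Hif3a also counts among the 10 positive genes and in the median of this list. Eloc had 13.86 and 13.92 in space flight, against 13.01 and 13.28 in ground control, a difference of 0.74 ± 0.17 (SE; limma adjusted p = 0.169). Its 3 other measured probe sets gave 0.90, 1.12 and 1.18. Elob stood at 0.50 ± 0.18 (SE; adjusted p = 0.322), and its other measured probe set at 0.28 with overlapping groups.

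The other alpha subunits were at opposite ends of this list. Epas1, which encodes HIF-2 alpha, had 9.64 and 8.80 in space flight, against 10.35 and 10.58 in ground control. Both space flight arrays were lower, and the difference was −1.24 ± 0.35 (SE; limma adjusted p = 0.224). Hif3a had 7.88 and 7.06 in space flight, against 6.50 and 4.63 in ground control, a difference of 1.90 ± 0.71 (SE; adjusted p = 0.340), but in ground control it averaged 5.57, under the limit of 6.40. The lowest others by the test's statistic were the coactivator Crebbp at −0.44 ± 0.32, whose 3 other measured probe sets gave −0.61, 0.34 and −0.55, and the HIF inhibitor Cited2 at −0.26 ± 0.26, whose other probe set gave 0.60 (SE).

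Other HIF targets had a median difference of 0.06 over 28 measured genes of 36 listed, and 6 were higher and 1 lower at an unadjusted p under 0.05, where 6.22% and 6.69% of all measured genes were. Highest by the test's statistic were Cxcr4, Ddit4 and Higd1a. The chemokine receptor gene Cxcr4 had 11.42 and 11.59 in space flight, against 10.33 and 10.20 in ground control, a difference of 1.24 ± 0.25 (SE; limma adjusted p = 0.144). Ddit4, an inhibitor of the growth regulator mTORC1 that other stresses also induce, had 11.33 and 10.47 in space flight, against 9.17 and 9.39 in ground control, at 1.62 ± 0.34 (SE; adjusted p = 0.148). Higd1a, a mitochondrial inner membrane protein, stood at 0.58 ± 0.17 (SE; adjusted p = 0.244), and its other measured probe set at 0.00. At the low end were P4hb at −0.39 ± 0.15, the partner of P4ha1 in the collagen enzyme, the lipase inhibitor Angptl4 at −0.38 ± 0.25 and the glycogen branching enzyme Gbe1 at −0.38 ± 0.26 (SE; adjusted p from 0.346 to 0.603).

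Glycolytic targets had a median difference of −0.05 over 16 measured genes of 19 listed, with 1 higher and 1 lower at an unadjusted p under 0.05, against the same 6.22% and 6.69% of all measured genes. The higher one was the glucose transporter gene Slc2a3, with 11.27 and 10.62 in space flight, against 8.65 and 9.49 in ground control. It stood at 1.87 ± 0.37 on 1437052_s_at (SE; limma adjusted p = 0.138) and at 1.67 on its other measured probe set, 1455898_x_at. Probes with these endings may also read other transcripts, and the 2 probe sets are not independent. Next was the lactate exporter gene Slc16a3, with 9.81 and 11.32 in space flight, against 9.45 and 9.77 in ground control. Its difference of 0.96 ± 0.45 (SE) lay mostly in space flight array 2, where the Gapdh ratio was 15.2. The phosphofructokinase gene Pfkl stood at 0.22 ± 0.17 (SE), and its other measured probe sets at 0.45 and 0.00. The lower one was the aldolase gene Aldoc at −0.59 ± 0.25, followed by Pfkfb3 at −0.72 ± 0.34 and Tpi1 at −0.31 ± 0.18 (SE). Other measured probe sets gave −0.35 for Aldoc, −0.77 for Pfkfb3, and −0.43 and −0.24 for Tpi1. That Pfkfb3 probe set had 7.43 and 5.08 in space flight, against 6.85 and 7.19 in ground control. It was measured only through ground control, since its space flight mean of 6.25 lay under the limit of 6.40. The classic targets Slc2a1, Ldha and Pgk1, added after their values were seen, stood at 0.02, 0.10 and −0.04. Their space flight means were 14.50, 15.22 and 15.30, and the Pgk1 probe set, 1438640_x_at, may also bind other transcripts. Whether the arrays resolve differences at such levels was not tested.

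**Figure D4:**
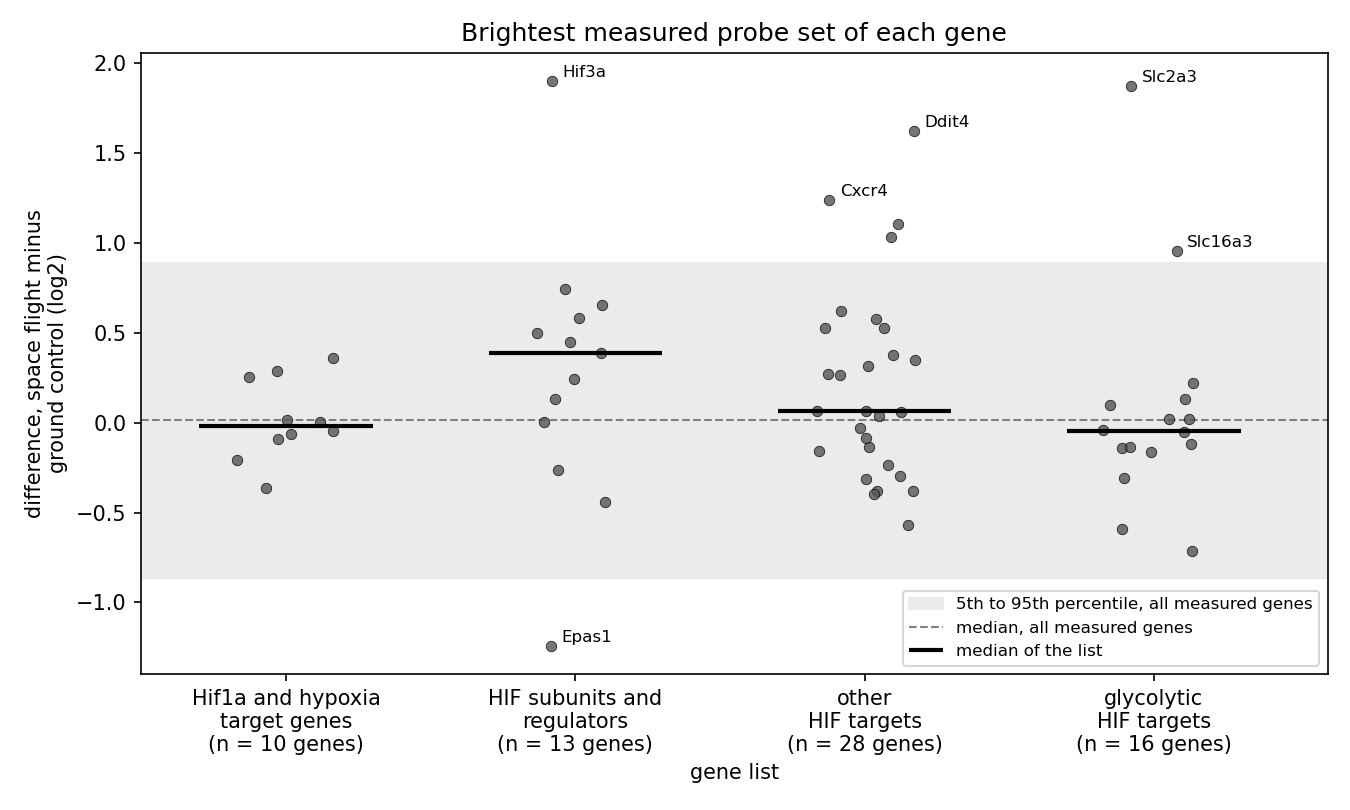
Difference in log2 intensity, space flight minus ground control, of the brightest measured probe set of each gene in 4 lists, with list medians as bars and the 5th to 95th percentile of all measured genes, −0.86 to 0.89, in grey. All 10 members lie inside the grey band, while Slc2a3, Ddit4, Cxcr4, Hif3a and Epas1 are among the genes outside it. Hif3a was measured only through space flight, since its ground control mean of 5.57 lay under the limit of 6.40.

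Levels of marker genes, of macrophages and of other cells, are set beside these values. Of 13 measured neutrophil markers 11 were separated upwards in space flight and 1 downwards, with a summed log2 level of 143.6 to 149.5 in space flight and 129.0 to 131.5 in ground control. Of 7 measured erythroid markers 6 were separated upwards, with summed levels of 57.0 to 61.1 in space flight and 48.7 to 52.7 in ground control. One of the 6, Ermap, averaged 5.73 in ground control, under the limit of 6.40, and was measured only through its space flight mean of 7.63. Of 12 macrophage markers 2 were separated upwards and 7 downwards, with summed levels of 133.0 to 135.0 in space flight and 135.1 to 138.1 in ground control. One of the 2 upward macrophage markers, Fcgr1, averaged 6.07 in ground control and likewise was measured only through its space flight mean of 7.09. Of 3 measured osteoclast markers of 5 listed, 1 was separated upwards and 2 downwards, with a median difference of −1.02 and summed levels of 32.3 to 32.7 in space flight and 33.7 to 34.1 in ground control. The downward ones were Atp6v0d2, a proton pump subunit, at −1.15 ± 0.22 and the protease gene Ctsk at −1.02 ± 0.20 (SE; limma adjusted p = 0.126 and 0.138). The upward one was Acp5, at 0.73 ± 0.36 (SE; limma adjusted p = 0.458), so the measured osteoclast markers were split. For comparison, 23.0% of all measured genes were separated upwards and 22.5% downwards, and none of these markers passed the test, the lowest adjusted p being 0.0557 for a neutrophil marker. No marker in these lists had an intensity of 0. Most B cell, T and NK cell, mast cell, dendritic cell and stromal markers lay below the limit of 6.40. The part of a different cell mix in the member values was not tested.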

How the data were processed

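RNA was amplified in 2 rounds, labelled with biotin and hybridised to Affymetrix mouse arrays, per the labels' protocols. Deposited values are linear intensities, 1 for each probe set on each array. GCOS is named in the submitters' processing notes, without a version; which algorithm summarised the probes is not stated there. Every array had a mean of 500.004 once the lowest and highest 2% of its deposited intensities were set aside.

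From these, log2(value + 16) was computed in R 4.3.3 and quantile normalized without the 64 control probe sets, since array medians differed by up to 0.385. Differences on this scale understate the change of dim genes. No genome build is named for the probe sets, so no positions of them are given. Of 45037 probe sets, 34945 had 1 symbol; none was named from several symbols. The groups were tested two-sided with lmFit and eBayes of limma 3.58.1, letting the prior variance follow intensity, on 22519 measured probe sets; p-values were adjusted by Benjamini-Hochberg and called under 0.05. The moderated test had 9.31 degrees of freedom. The procedure was tested on simulated data. The number of arrays limits the precision.

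All probe sets of the 10 genes are reported. From each pathway list every gene past the threshold and the 3 highest and 3 lowest by moderated statistic are named, with Slc2a1, Ldha and Pgk1 added after their values were seen. Some listed genes are not analysed here. The members and lists were chosen with earlier results of these data known. Alternatives covered array scaling, pseudocount, filter, variance model, array weights, a replicate block, 1 value per gene and leaving out each array.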

Additional observations from a re-analysis of the deposited data

How the results depend on the processing

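Across 311 comparisons of a member probe set with another setting, the sign was kept in 281 and reversed in 30; 19 of the reversals came with 1 array left out, 8 with another array scaling and 3 with the mean of a gene's probe sets, and none of them was past the threshold. For 8 probe sets (Vegfa 1451959_a_at, Bnip3 1422470_at, Egln3 1418648_at, Ankrd37 1436538_at, Ndrg1 1456174_x_at, 1420760_s_at and 1450976_at, and P4ha1 1426519_at) the sign held in every setting run. The number of member probe sets past the threshold was 0 in every setting with all arrays. With 1 array left out, the remaining array of a pair takes its spread from the other group, so the numbers that passed there are not given. The members' median difference ran from 0.0323 to 0.24 with 1 array left out. Shifting each array to 1 median moved the median of all probe sets to −0.18 and that of the members to −0.23; leaving out the _x_at probe sets, an alternative chosen after seeing the data, gave −0.04.

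The count over all probe sets, 11 as reported, was 0 with arrays shifted to 1 median, with no filter, with no intensity trend and with the mean of each gene's probe sets, 18 under cyclic loess, 19 with a pseudocount of 64, 63 with the filter at the 75th percentile, 64 with array weights, 7 with the brightest probe set of each gene and 334 with the replicate number as a block, and it ran from 1 to 2632 with 1 array left out. At an unadjusted p under 0.05 limma gave 2704. The replicate numbers share no stated source, deviations of same-numbered arrays correlated at 0.066 across probe sets, and the block left 0 members past the threshold. The cause of these changes was not tested.

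Reversed values under other scalings were −0.0269 for Adm 1447839_x_at and −0.0311 for Kdm3a with values as deposited, −0.0297 and −0.0402 under cyclic loess, and, with arrays shifted to 1 median, −0.23 for Adm 1447839_x_at, −0.12 for Ndrg1 1423413_at, −0.18 for Ndrg1 1450977_s_at and −0.23 for Kdm3a. As the mean of their probe sets Vegfa stood at 0.42, Egln3 at 0.0588 and Adm at −0.17. With 1 array left out, differences ran from −0.32 to 0.15 for Hif1a 1427418_a_at, −0.40 to 0.0324 for Hif1a 1416035_at, −1.92 to 0.89 for Hif1a 1448183_a_at, −0.66 to 0.24 for Vegfa 1420909_at, −0.28 to 0.20 for Egln1 1423785_at, −0.46 to 0.35 for Egln1 1451110_at, −0.45 to 0.48 for Adm 1447839_x_at, −1.13 to 0.42 for Adm 1416077_at, −0.92 to 1.16 for Ndrg1 1423413_at, −0.17 to 0.23 for Ndrg1 1450977_s_at, −0.36 to 0.23 for P4ha1 1452094_at, −0.34 to 0.35 for Kdm3a 1426810_at.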
